A study of Mus musculus with 9 samples.

Results

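The PGC-1 coactivators, the estrogen-related receptors and 3 genes that work with them were examined for binding of the nuclear receptor NR4A2 in mouse heart. The 9 genes are Ppargc1a, Ppargc1b and Pprc1 (the PGC-1 family), Esrra, Esrrb and Esrrg (the estrogen-related receptors, ERR), Perm1, Nrf1 and Tfam. Every region of the deposited NR4A2 ChIP-seq table that touched the GRCm38 RefSeq span of a listed gene, extended by 10 kb on each side, was taken. This gave 36 of 16884 regions, and each of the 9 genes had at least 1 (of 11151 protein-coding genes with a region in all). Signal was compared between 3 Nr4a2-icTg mice and 3 Cre control littermates. Nr4a2-icTg mice carry the conditional Nr4a2-reporter knock-in EGE-GJ-095 at ROSA26 together with αMHC-MerCreMer, a tamoxifen-activated Cre recombinase under the Myh6 promoter, which is active in cardiomyocytes. The Cre parent was a Jackson Laboratory Myh6-cre/Esr1* strain on a B6.FVB background, and Cre control mice carry αMHC-MerCreMer. All 6 mice were 8 to 9 weeks old at induction, received 1 intraperitoneal dose of tamoxifen at 40 mg/kg, and are labelled day 3. The tissue was heart ventricle, the antibody was NR4A2 clone 9D12, and nothing in the labels separates the transgenic from the mouse's own NR4A2 protein.

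PGC-1 coactivators do not bind DNA themselves. They dock on transcription factors, among them the ERR, the PPAR and nuclear respiratory factor 1, and raise transcription of genes for mitochondria, fatty acid oxidation and respiration. The ERR are orphan nuclear receptors that bind an extended receptor core, and Esrra and Esrrg sustain oxidative metabolism in heart muscle. Perm1 is a striated muscle protein induced by PGC-1 and ERR. Nrf1 encodes nuclear respiratory factor 1, which switches on Tfam, and TFAM packages and transcribes mitochondrial DNA. NR4A receptors bind as monomers to the NBRE, which contains the same receptor core as the ERR element.

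Signal is given in CPM, reads scaled for depth by the authors, and each library's values sum to between 989059 and 1009112 over the listed regions. Reads in regions numbered 637635 to 1035856 in Nr4a2-icTg hearts and 549700 to 1027394 in Cre control hearts, so that 1 read was worth 0.955 to 1.81 CPM. Between hearts of the same group the correlation of log2(CPM + 1) over all regions was 0.824 to 0.913, and between groups it was 0.645 to 0.760. Each fold change is the mean of log2(CPM + 1) in Nr4a2-icTg hearts minus that in Cre control hearts, a scale that understates changes of weak regions. A region was called where the adjusted p from limma, corrected by Benjamini-Hochberg over all 16884 regions, was under 0.05. At the Nr4a2 gene, 2 of 4 regions were higher, and the stronger of them held 115, 82.0 and 74.4 CPM in Nr4a2-icTg hearts against 6.15, 7.79 and 25.3 CPM in Cre control hearts. Nr4a2-icTg mice also carry Nr4a2 sequence in the knock-in. Reads from the knock-in and from the gene itself cannot be told apart there. Among markers of ventricular cell types, 8 of 8 cardiomyocyte genes had a region. Their summed signal was 44703 to 54236 CPM in Nr4a2-icTg hearts and 33647 to 50192 CPM in Cre control hearts. Of these 8 genes, 6 had a higher region (against 14.2% of all genes) and 1 a lower one (against 6.24%). They held 26.6 regions per gene, against 2.00 over all genes, which gives more chances of a call. By region, 18 of their 213 were higher, a smaller share than the 14.7% of all regions, and 2 were lower (3.17% of all regions). Regions were listed at 3 of 5 fibroblast, 4 of 5 endothelial, 1 of 4 smooth muscle and 1 of 5 immune markers, and Pdgfra, Dcn, Tek, Myh11, Tagln, Rgs5, Ptprc, Csf1r, Adgre1 and Cd3e had none. The endothelial markers summed to 396 to 535 CPM in Nr4a2-icTg hearts and 558 to 667 CPM in Cre control hearts, and Pecam1 and Tie1 each had 1 lower region. These are 2 of the 4 endothelial genes with a region, against 6.24% of all genes, at 3.25 regions per gene. By region 2 of 13 were lower, against 3.17% of all regions. With edgeR 2 of these genes had a lower region, and with DESeq2 0 had one. The immune marker with regions held 341 to 375 CPM in Nr4a2-icTg hearts and 418 to 460 CPM in Cre control hearts, without overlap, and neither of its 2 regions was called. The part of cell composition in the results below was not tested, and in bulk tissue a larger share of bound cells cannot be told apart from more binding per cell.

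NR4A2 signal was higher in Nr4a2-icTg hearts at 11 of the 36 regions (30.6%, against 14.7% of all regions) and lower at 0 (3.17% of all regions). In the same limma fit 1 region was lower at an unadjusted p under 0.05, and neither edgeR nor DESeq2 on recovered reads called one lower. The higher regions lay at 4 genes: 5 of 13 at Ppargc1b, 3 of 8 at Perm1, 2 of 8 at Ppargc1a and the single region at Esrrb. Over all genes 14.2% had a higher region. The 9 genes held 36 regions, more per gene than the 2.00 over all genes, which gives more chances of a call. Pprc1, Esrra, Esrrg, Nrf1 and Tfam had no called region. Log2 fold changes had a median of 0.77 over the 36 regions and of -0.06 over all regions. In 16 of the 36 regions every Nr4a2-icTg heart was above every Cre control heart, which held for 19.9% of all regions. Among regions of at least median signal over the 6 mice (37.4 CPM), 10 of 22 at these genes were higher, against 6.61% of all such regions. That mean includes the Nr4a2-icTg hearts, so a gain can itself carry a region over the median. For example, 1 of the 10 at Ppargc1a and 1 at Ppargc1b had control means of 15.1 and 15.7 CPM. The comparison is therefore a description and not support. Only 1 of the 11 higher regions, at Esrrb, was under the median signal. Without Nr4a2-icTg mouse 3 the count of higher regions was 7, all among the 11. On recovered reads with no scaling for depth 5 were higher, and the calls over all regions split into 1398 higher and 14 lower, against 2475 higher and 536 lower with the deposited scaling.

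**Figure D1:**
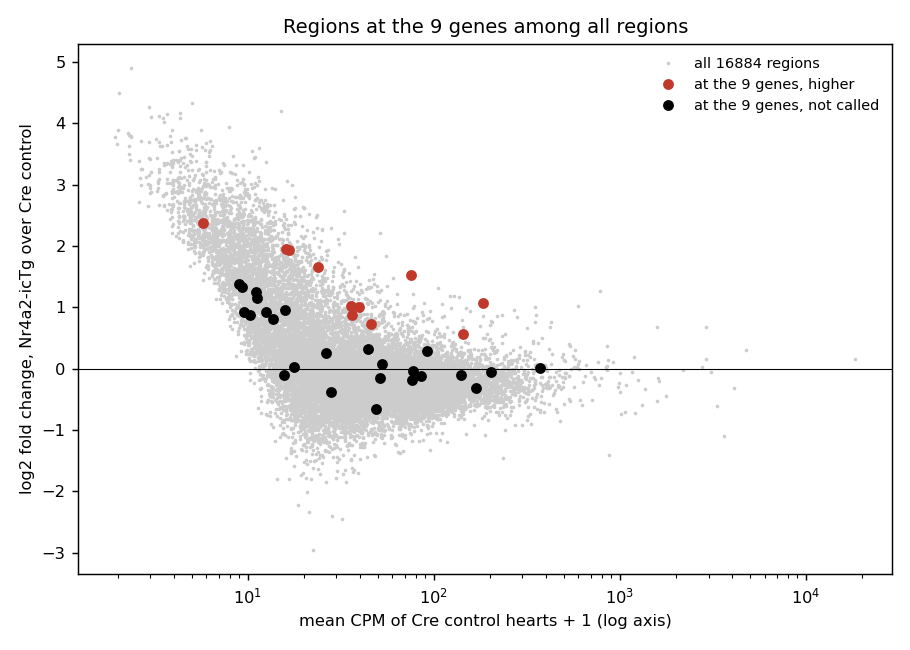
Each grey point is 1 of 16884 regions and each larger point 1 of the 36 regions at the 9 genes; the horizontal axis is the mean CPM of the 3 Cre control hearts plus 1 (log axis) and the vertical axis the log2 fold change of Nr4a2-icTg over Cre control. The 11 higher regions (red) have control means of 4.78 to 183 CPM, and across all regions the larger fold changes lie at low control signal.

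The sequence around start sites is shown for 3 genes because the data bear on each: the Perm1 window lies wholly inside a region that gained signal, while the regions over the Ppargc1a and Esrra windows did not. Each is the RefSeq window of 300 bases on GRCm38.p6, 250 before the listed start and 50 from it on, written 5′ to 3′ on the gene's own strand. Capitals mark every match, on either strand, to the motifs searched: the NBRE AAAGGTCA, the ERR element TCAAGGTCA, the receptor core AGGTCA that both contain, and AAATGCCA, a part of the NurRE element to which NR4A dimers bind. The windows are chr4:156215677-156215976 on the plus strand for Perm1, chr5:51567676-51567975 on the minus strand for Ppargc1a and chr19:6921759-6922058 on the minus strand for Esrra.
Perm1: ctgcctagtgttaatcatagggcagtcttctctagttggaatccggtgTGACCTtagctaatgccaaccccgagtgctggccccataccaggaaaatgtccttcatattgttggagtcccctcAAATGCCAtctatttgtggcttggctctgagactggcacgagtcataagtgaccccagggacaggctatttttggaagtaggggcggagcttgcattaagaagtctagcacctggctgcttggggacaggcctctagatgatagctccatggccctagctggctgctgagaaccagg
Ppargc1a: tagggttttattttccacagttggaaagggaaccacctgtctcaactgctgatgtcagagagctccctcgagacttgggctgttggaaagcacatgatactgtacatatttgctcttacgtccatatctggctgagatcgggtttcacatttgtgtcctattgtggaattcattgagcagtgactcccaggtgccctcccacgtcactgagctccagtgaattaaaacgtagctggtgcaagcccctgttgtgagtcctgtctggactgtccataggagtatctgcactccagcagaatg
Esrra: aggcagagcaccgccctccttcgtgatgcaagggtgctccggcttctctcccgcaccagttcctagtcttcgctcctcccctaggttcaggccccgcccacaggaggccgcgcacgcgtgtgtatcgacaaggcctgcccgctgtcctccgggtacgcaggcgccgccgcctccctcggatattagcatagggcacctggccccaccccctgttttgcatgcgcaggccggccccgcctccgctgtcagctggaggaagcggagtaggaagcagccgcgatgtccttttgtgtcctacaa

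The Perm1 window holds 1 AAATGCCA on the gene's strand, from -127 to -120 counted from 0 at the listed start, and 1 receptor core on the other strand, from -202 to -197. The Ppargc1a and Esrra windows hold none of the 4 motifs. Over the 13 windows listed for 8 of the genes, 0 held the NBRE, 0 the ERR element, 1 AAATGCCA and 2 the receptor core (Perm1 and Pprc1). Among all 32817 windows of the table, 1.51% held the NBRE, 0.424% the ERR element, 1.12% AAATGCCA and 16.3% the receptor core. A match is a string of letters and not a binding site, and the absence of one concerns these 300 bases alone. No window was listed for Ppargc1b, and sequences of the regions away from start sites were not used here.

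Ppargc1b, which encodes PGC-1β, had the most higher regions. Its 13 regions are numbered by position. The 5 higher ones, numbers 6 to 10, were neighbours in a stretch of 20.6 kb inside the gene (chr18:61330285-61350860), 49.9 to 70.5 kb from the higher-numbered end of the gene, with no other listed region among them. Which end is the start is not given in the gene table used, nor are exons. The strongest, region 6 (chr18:61330285-61332169), held 205, 233 and 208 CPM in Nr4a2-icTg hearts and 93.2, 68.1 and 63.4 CPM in Cre control hearts. All 3 Nr4a2-icTg hearts were far above every control, and the log2 fold change was 1.53 ± 0.19 (SE, limma, adjusted p = 2.08e-09). Region 10 (chr18:61350279-61350860) held 46.8, 72.5 and 69.4 CPM in Nr4a2-icTg hearts and 17.4, 11.7 and 18.1 CPM in Cre control hearts, the largest fold at this gene (1.93 ± 0.35, limma, adjusted p = 1.51e-05).

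Region 9 of Ppargc1b (chr18:61346250-61346835) held 59.2, 77.2 and 87.0 CPM in Nr4a2-icTg hearts against 22.5, 28.2 and 18.1 CPM in Cre control hearts (log2 fold change 1.66 ± 0.31, limma, adjusted p = 2.04e-05). Region 7 (chr18:61332514-61333070) held 64.0, 50.4 and 112 CPM in Nr4a2-icTg hearts and 29.7, 37.0 and 38.0 CPM in Cre control hearts. The groups did not overlap there (1.02 ± 0.29, limma, adjusted p = 0.00585), but Nr4a2-icTg mouse 3 stood well above the other two, and without it the adjusted p was 0.176. Region 8 (chr18:61335505-61336041) held 67.8, 74.1 and 54.2 CPM in Nr4a2-icTg hearts and 34.8, 39.9 and 30.8 CPM in Cre control hearts (0.87 ± 0.28, limma, adjusted p = 0.0206). Its call ended when Nr4a2-icTg mouse 1, Nr4a2-icTg mouse 2 or Cre control mouse 3 was left out (adjusted p up to 0.102).

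The strongest signal at Ppargc1b lay elsewhere, and there the groups overlapped. Region 13 (chr18:61396811-61400569), 187 bp from the higher-numbered end of the gene, held 410, 374 and 343 CPM in Nr4a2-icTg hearts and 375, 343 and 393 CPM in Cre control hearts. The 95% interval of the log2 fold change ran from -0.28 to 0.32. Beside it, region 12 (chr18:61394381-61396365) averaged 128 ± 8.97 CPM in Nr4a2-icTg hearts and 140 ± 30.4 CPM in Cre control hearts (SD, n = 3 each). Summed over regions 11 to 13, near that end, the signal was 542, 538 and 482 CPM in Nr4a2-icTg hearts and 560, 503 and 516 CPM in Cre control hearts. Summed over the 5 higher regions it was 443, 508 and 531 CPM in Nr4a2-icTg hearts and 198, 185 and 168 CPM in Cre control hearts. The log2 difference between region 10 and region 13 was -2.58 ± 0.45 in Nr4a2-icTg hearts and -4.49 ± 0.23 in Cre control hearts (SD, n = 3 each). The pair was set by fold and call, so it is a description with no test, as are the pairs given for Ppargc1a and Perm1. The remaining regions, 1 to 5, were weak, with means of 18.7 to 30.7 CPM in Nr4a2-icTg hearts and 9.27 to 14.9 CPM in Cre control hearts. Their log2 fold changes were 0.81 to 1.26, and none passed (limma, adjusted p from 0.0584 to 0.326).

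**Figure D2:**
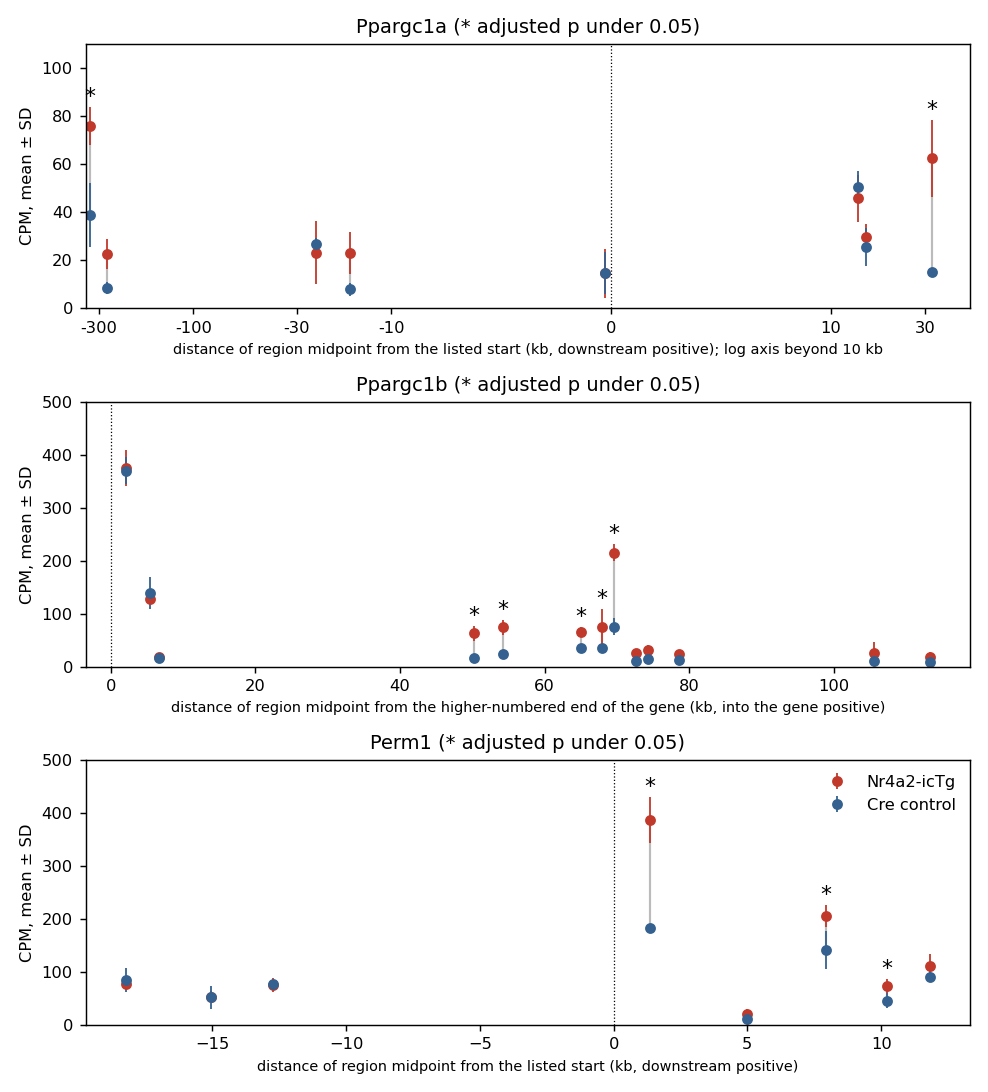
Mean CPM ± SD of 3 Nr4a2-icTg hearts (red) and 3 Cre control hearts (blue) in each region of Ppargc1a, Ppargc1b and Perm1, against the distance of the region's midpoint from the listed start (Ppargc1a, Perm1) or from the higher-numbered gene end (Ppargc1b); the Ppargc1a axis is logarithmic beyond 10 kb. Stars mark adjusted p under 0.05: the gains at Ppargc1b form a run 49.9 to 70.5 kb into the gene while the groups overlap in the 375 CPM region at its end, and at Perm1 the highest of the 3 starred regions covers the start.

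Ppargc1a, which encodes PGC-1α, the best known member of the family, had 8 regions over a span of 662 kb, of which 2 were higher. Region 1 (chr5:51534945-51535479), 32.5 kb downstream of the listed start and inside the gene, held 46.8, 78.8 and 61.8 CPM in Nr4a2-icTg hearts and 15.4, 13.6 and 16.3 CPM in Cre control hearts. The lowest Nr4a2-icTg heart was well above the highest control, and the log2 fold change was 1.95 ± 0.35 (SE, limma, adjusted p = 1.34e-05). Region 8 (chr5:51899488-51900241), 332 kb upstream of that start but within the annotated span, held 66.8, 78.8 and 82.0 CPM in Nr4a2-icTg hearts against 46.1, 23.4 and 47.1 CPM in Cre control hearts. The groups did not overlap (1.01 ± 0.28, limma, adjusted p = 0.00473), and the call ended without Nr4a2-icTg mouse 3 (adjusted p = 0.0561) and without Cre control mouse 2, the lowest control (adjusted p = 0.0972).

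At the listed start of Ppargc1a the signal was low in both groups. Region 4 (chr5:51567822-51568156), 97 bp from the start, held 4.77, 25.2 and 13.9 CPM in Nr4a2-icTg hearts and 7.17, 24.3 and 12.7 CPM in Cre control hearts. Its log2 fold change of -0.11 has a 95% interval from -1.24 to 1.02, so changes of either sign within these bounds are not excluded. Region 3 (chr5:51553756-51554363), the strongest that was not called, held 53.5, 34.7 and 49.2 CPM in Nr4a2-icTg hearts and 43.0, 52.6 and 56.1 CPM in Cre control hearts. Against it, the log2 signal of region 1 was 0.43 ± 0.68 higher in Nr4a2-icTg hearts, while in Cre control hearts the difference was -1.67 ± 0.23 (SD, n = 3 each). In Nr4a2-icTg hearts region 1 was thus about as strong as region 3, and in every Cre control heart it was weaker. Regions 5 and 7 had no overlap between groups, with log2 fold changes of 1.38 and 1.33, but did not pass (limma, adjusted p = 0.0614 and 0.0689). In the authors' deposited table region 5 is marked as up (FDR = 0.035).

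Pprc1, the third PGC-1 gene, whose product responds to growth signals, had 1 region, at its start (chr19:46056458-46056761). It held 39.1, 17.3 and 36.6 CPM in Nr4a2-icTg hearts and 45.1, 62.3 and 36.2 CPM in Cre control hearts. The groups overlapped, and the log2 fold change of -0.66 ± 0.33 did not pass (limma, adjusted p = 0.173). It was the region that was lower at an unadjusted p under 0.05, and it also lies within 10 kb of Ldb1.

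**Figure D3:**
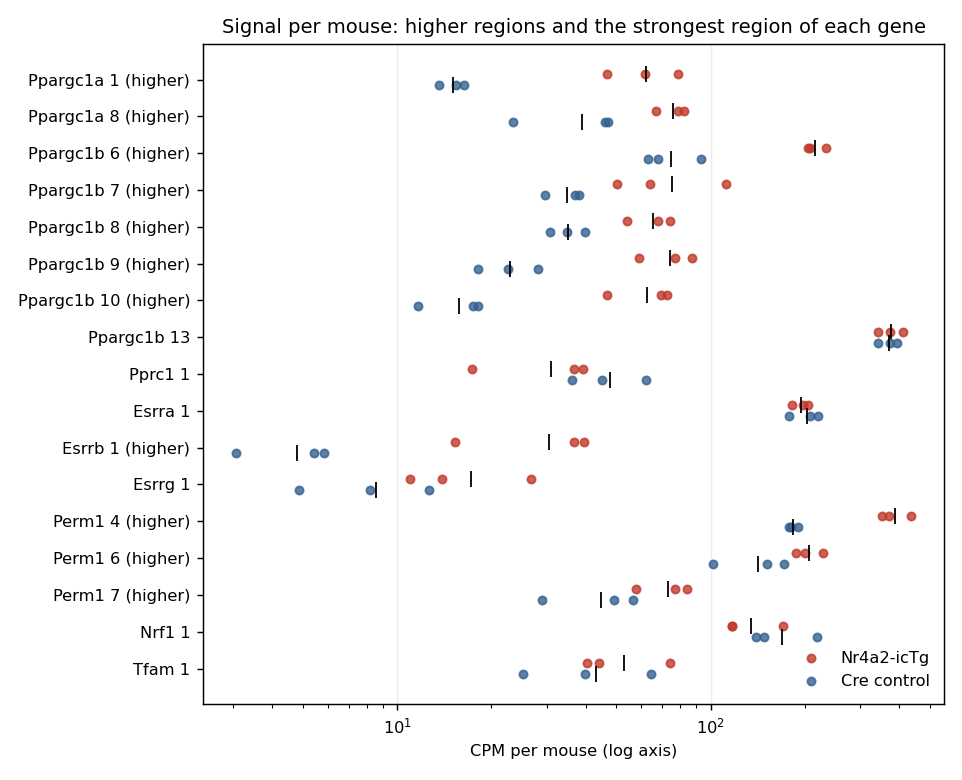
CPM of each mouse (log axis) in the 11 higher regions and in the strongest region of each gene, with 3 Nr4a2-icTg hearts in red above 3 Cre control hearts in blue and the group mean as a black tick; numbers count a gene's regions by position. The groups are apart in all 11 higher regions and overlap at Ppargc1b 13, Pprc1, Esrra, Esrrg, Nrf1 and Tfam.

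Of the 3 estrogen-related receptor genes 1 had a called region. Esrrb, the receptor best known from stem cells and the inner ear, had 1 region, inside the gene and with its midpoint 53.3 kb from the nearest of 2 listed starts (chr12:86474725-86475107). It held 15.3, 39.4 and 36.6 CPM in Nr4a2-icTg hearts against 3.07, 5.84 and 5.43 CPM in Cre control hearts. Those were 16, 25 and 29 reads in Nr4a2-icTg hearts and 3, 6 and 3 reads in Cre control hearts, so the control level rests on few reads. The log2 fold change was 2.37 ± 0.57 (SE, limma, adjusted p = 0.00116), the largest of the 36 regions. It was 2.13 to 2.79 with any 1 mouse left out.

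Esrra, which encodes a main partner of PGC-1α in muscle, had no called region. Region 1 (chr19:6909322-6911325), over the lower-numbered end of the gene and also near Prdx5 and Trmt112, held 198, 205 and 182 CPM in Nr4a2-icTg hearts and 178, 208 and 221 CPM in Cre control hearts. The groups overlapped, and the 95% interval of its log2 fold change ran from -0.39 to 0.28. Region 2 (chr19:6921204-6921929), over the listed start, averaged 65.6 ± 6.45 CPM in Nr4a2-icTg hearts and 75.8 ± 17.9 CPM in Cre control hearts (SD, n = 3 each, log2 fold change -0.19 ± 0.24 SE, limma, adjusted p = 0.663). Esrrg, an ERR gene with high expression in heart, had a single weak region in a span of 606 kb (chr1:187938783-187939029). It held 26.7, 11.0 and 13.9 CPM in Nr4a2-icTg hearts and 8.20, 4.87 and 12.7 CPM in Cre control hearts. The groups overlapped, and the 95% interval of the log2 fold change ran from -0.25 to 2.08, at 7 to 28 reads in Nr4a2-icTg hearts and 5 to 8 reads in Cre control hearts. None of the 4 listed Esrrg starts and neither of the 2 Esrrb starts lay in a region of the table.

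Perm1 had the only higher region of the 9 genes within 1 kb of a listed start, leaving aside Ppargc1b, for which none is listed. Region 4 (chr4:156215460-156219123), a region of 3664 bp that covers the listed start, held 353, 372 and 435 CPM in Nr4a2-icTg hearts and 180, 191 and 177 CPM in Cre control hearts. The 3 controls lay close together, every Nr4a2-icTg heart was far above them, and the log2 fold change was 1.07 ± 0.16 (SE, limma, adjusted p = 1.75e-07). The region also lies within 10 kb of Klhl17 and Plekhn1. Downstream of the gene, region 6 (chr4:156222634-156225075) held 201, 188 and 228 CPM in Nr4a2-icTg hearts and 152, 102 and 172 CPM in Cre control hearts, with a smaller fold of 0.56 ± 0.18 (limma, adjusted p = 0.0201). Region 7 (chr4:156225667-156226606) held 84.0, 77.2 and 58.0 CPM in Nr4a2-icTg hearts against 49.2, 56.4 and 29.0 CPM in Cre control hearts (0.73 ± 0.27, limma, adjusted p = 0.0478). These 2 calls were close to the threshold. The call of region 6 ended with any of 3 mice left out (Nr4a2-icTg mouse 1 or 3, Cre control mouse 2), with adjusted p up to 0.287, and that of region 7 with any of 4 (each Nr4a2-icTg mouse, Cre control mouse 3), also up to 0.287. DESeq2 called neither (adjusted p = 0.0869 for region 6 and 0.172 for region 7), edgeR did not call region 7 (adjusted p = 0.0643), and the authors' deposited table marks both as unchanged. Both lie outside the Perm1 span, by 1327 and 4360 bp, and within 10 kb of Klhl17, Plekhn1 and Noc2l.

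Regions 1 to 3, with midpoints from -18.2 to -12.7 kb of the Perm1 start, are also assigned to Agrn and Isg15 and had log2 fold changes of -0.11 to 0.07 and overlapping groups. Region 8 (chr4:156226869-156228644), the strongest uncalled region, averaged 111 ± 21.9 CPM in Nr4a2-icTg hearts and 90.6 ± 10.8 CPM in Cre control hearts. The log2 difference between region 4 and region 8 was 1.80 ± 0.39 in Nr4a2-icTg hearts and 1.01 ± 0.13 in Cre control hearts (SD, n = 3 each). Region 8 was also the farthest inside the 10 kb limit, 5562 bp from the Perm1 span. Just outside it lay a region 10115 bp from Pprc1, with means of 211 CPM in Nr4a2-icTg hearts and 247 CPM in Cre control hearts, then regions 12850 bp from Perm1, with means of 54.4 CPM in Nr4a2-icTg hearts and 12.2 CPM in Cre control hearts, and 13765 bp from Ppargc1a, with 58.5 CPM in Nr4a2-icTg hearts and 17.0 CPM in Cre control hearts.

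Nrf1 and Tfam, the downstream mitochondrial regulators, each had 1 region, at the start, and neither was called. Nrf1 (chr6:30047615-30048553) held 170, 117 and 117 CPM in Nr4a2-icTg hearts and 139, 148 and 219 CPM in Cre control hearts. The highest value was Cre control mouse 3 and the groups overlapped (log2 fold change -0.32 ± 0.19, limma, adjusted p = 0.272). Tfam (chr10:71237887-71238447) held 43.9, 74.1 and 40.4 CPM in Nr4a2-icTg hearts and 64.5, 25.3 and 39.8 CPM in Cre control hearts. The spread within each group was larger than the difference between them (0.33 ± 0.31, limma, adjusted p = 0.521).

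**Figure D4:**
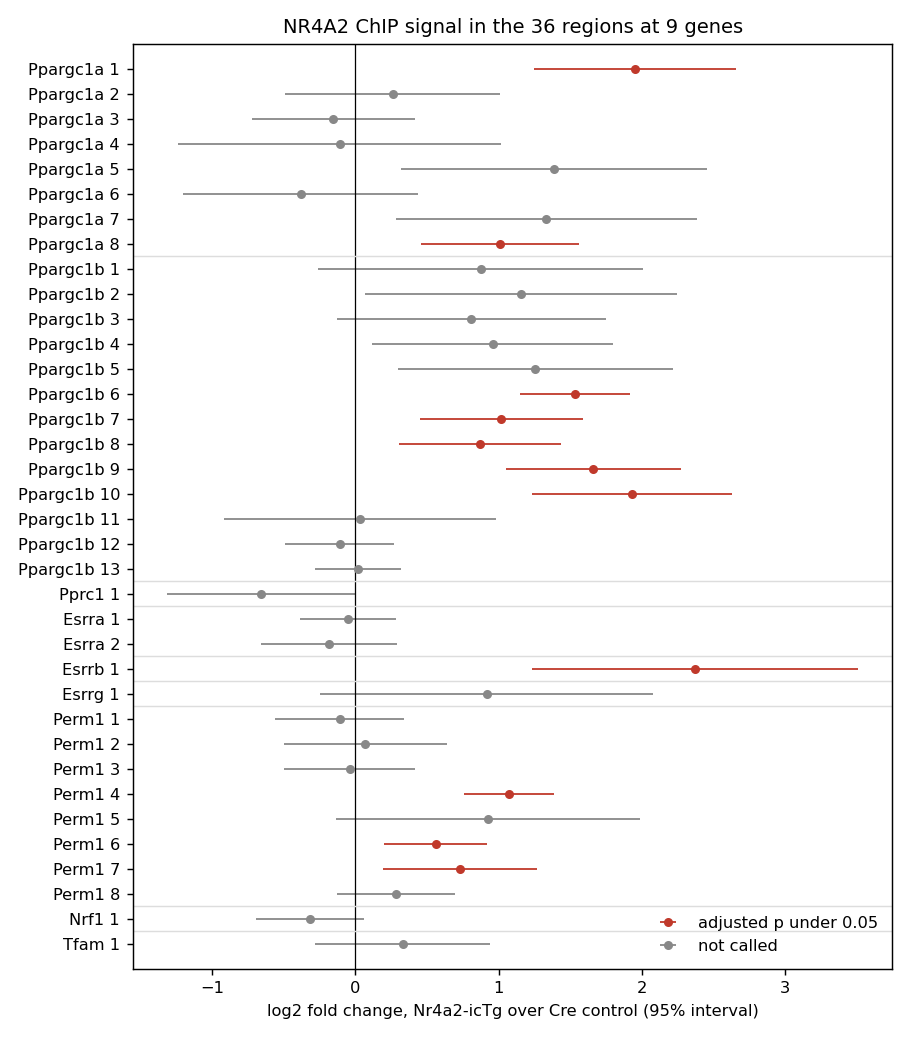
Log2 fold change of Nr4a2-icTg over Cre control with its 95% interval for all 36 regions, numbered by position within each gene; red points have an adjusted p under 0.05 and grey points were not called. Ppargc1b regions 1 to 10 all lie above 0 while its regions 11 to 13 lie around 0, and the single Pprc1, Nrf1 and Tfam regions and both Esrra regions lie within 0.66 of 0.

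Position relative to start sites was compared next. Of all regions within 1 kb of a listed start 2.19% were higher, against 24.7% of those farther away. At the 8 genes with listed starts, 11 regions lay within 1 kb of some gene's start and 1 of them was higher, the Perm1 start region. The other 12 lay farther away and 5 were higher. Of the 13 listed starts of these genes, 5 lay inside a region of the table, and the 4 at Esrra, Pprc1, Nrf1 and Tfam were in regions that were not called. Higher regions spanned 383 to 3664 bp (median 586), and 3 of them, all at Perm1, also touch another gene's extended span.

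Summed over all its regions, the signal of each gene gives 1 value per mouse, tested with limma over all 11151 genes. By this measure 4 of 9 genes were higher (6.94% of all genes) and 0 lower (3.15% of all genes). At an unadjusted p under 0.05 also 0 of the 9 were lower, and edgeR and DESeq2 likewise called 0. Over all genes these sums gave 774 higher and 351 lower calls with limma, 1004 and 104 with edgeR, 830 and 75 with DESeq2, and 239 and 0 with no scaling for depth, where 1 of the 9 genes stayed higher. The median log2 fold change over all gene sums was -0.13 with limma and -0.01 with edgeR, and that of Esrra, near 0, turned positive with edgeR and DESeq2. Ppargc1b summed to 1101, 1185 and 1126 CPM in Nr4a2-icTg hearts and 821, 755 and 726 CPM in Cre control hearts (log2 fold change 0.57 ± 0.12, adjusted p = 0.000947). Perm1 summed to 1002, 941 and 1059 CPM in Nr4a2-icTg hearts and 672, 673 and 708 CPM in Cre control hearts (0.55 ± 0.12, adjusted p = 0.00139). Ppargc1a summed to 258, 312 and 322 CPM in Nr4a2-icTg hearts and 185, 179 and 199 CPM in Cre control hearts (0.65 ± 0.14, adjusted p = 0.00146). In these 3 genes the groups did not overlap. Esrra summed to 265, 263 and 252 CPM in Nr4a2-icTg hearts and 240, 278 and 317 CPM in Cre control hearts (-0.09 ± 0.14, adjusted p = 0.738).

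In both groups the order of summed signal began with Ppargc1b, Perm1 and then Esrra and Ppargc1a. Ppargc1a exceeded Esrra in 2 of 3 Nr4a2-icTg hearts and was below it in all 3 Cre control hearts. Sums grow with the number and length of regions, so they order total signal and not binding strength. Nrf1 followed with 135 ± 30.6 CPM in Nr4a2-icTg hearts and 169 ± 43.7 CPM in Cre control hearts (SD, n = 3 each). Tfam, Pprc1, Esrrb and Esrrg had 17.2 to 52.8 CPM on average in Nr4a2-icTg hearts and 4.78 to 47.9 CPM in Cre control hearts. In Nr4a2-icTg hearts Tfam lay just above Pprc1 without overlap, while Pprc1 overlapped Esrrb and Esrrb overlapped Esrrg. By mean over the 6 mice Ppargc1b stood above 99.1% and Perm1 above 98.9% of all genes with a region, while Esrrg stood above 0.7%. Every Perm1 region is also assigned to other genes, and its regions 1 to 3 and 8 touch a listed start of another gene. Esrra region 1 does so too, so these sums include signal at neighbouring genes.

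**Figure D5:**
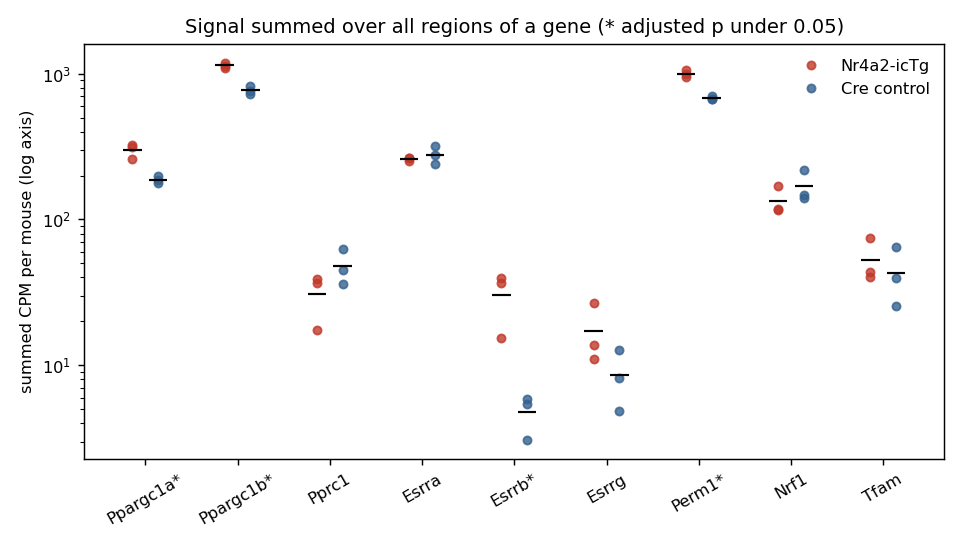
Summed CPM over all regions of a gene for each mouse (log axis), Nr4a2-icTg in red left of Cre control in blue, with the group mean as a bar; stars mark adjusted p under 0.05 over all genes. Ppargc1a, Ppargc1b, Esrrb and Perm1 are apart between groups, and the other 5 overlap.

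Genes that work with these 9 were described from 3 lists. Of 36 partners and regulators of PGC-1 and ERR, all with a region, 12 had a higher region (33.3%, against 14.2% of all genes) and 5 a lower one (13.9%, against 6.24%). They held 2.72 regions per gene, against 2.00 over all genes, which gives more chances of a call. By region, 18 of their 98 were higher (against 14.7% of all regions) and 5 lower (against 3.17%), and the median log2 fold change was -0.12. The higher count was 1 among regions of at least median signal, 3 with no depth scaling and 5 without Nr4a2-icTg mouse 3, and the lower count was 2 to 3 with any 1 mouse left out. Lpin1, a lipid phosphatase that also coactivates PPARα with PGC-1α, had 6 of 9 regions higher, and the region named by the rule (chr12:16643445-16644566) held 98.3, 154 and 92.1 CPM in Nr4a2-icTg hearts and 32.8, 47.7 and 54.3 CPM in Cre control hearts (1.33 ± 0.24, limma, adjusted p = 1.81e-05). The corepressor gene Ncor1 had 1 higher region, with a log2 fold change of 2.67 ± 0.61. It held 19.1, 36.3 and 32.8 CPM in Nr4a2-icTg hearts and 2.05, 2.92 and 7.24 CPM in Cre control hearts, so the control level rests on few reads. The coactivator gene Ncoa1 also had 1 higher region (1.65 ± 0.46). Lower regions were named at the coactivator gene Ncoa2 (-1.17 ± 0.28), at Rxra, the shared partner of many nuclear receptors (-0.70 ± 0.21), at Pparg (-0.94 ± 0.32) and at the kinase gene Camk2d (-0.49 ± 0.17). At Rxra the signal was 77.3, 66.2 and 73.2 CPM in Nr4a2-icTg hearts and 111, 97.3 and 150 CPM in Cre control hearts, with no overlap.

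Among 44 metabolic genes regulated by PGC-1 and ERR, all with a region, 10 had a higher region (22.7%, against 14.2% of all genes) and 4 a lower one (9.09%, against 6.24%). They held 3.93 regions per gene, against 2.00 over all genes, so each gene had more chances of a call. Counted by region, 14 of 169 were higher, a smaller share than the 14.7% of all regions. Lower regions numbered 5 of 169, against 3.17% of all regions. Log2 fold changes in this list centred on a median of 0.00. Genes with a higher region numbered 6 among regions of at least median signal and 2 with no depth scaling. Genes with a lower region numbered 2 with edgeR, with DESeq2 and without Nr4a2-icTg mouse 2. They numbered 1 without Nr4a2-icTg mouse 3, Cre control mouse 1 or Cre control mouse 2. Ckmt2, mitochondrial creatine kinase of muscle, had 4 of 11 regions higher and the region named held 478, 485 and 583 CPM in Nr4a2-icTg hearts and 333, 261 and 212 CPM in Cre control hearts (0.96 ± 0.16, limma, adjusted p = 1.9e-06). A region 313 bp outside Ucp3, a mitochondrial carrier of muscle, is also assigned to Ucp2 and held 64.0, 69.4 and 102 CPM in Nr4a2-icTg hearts and 43.0, 34.1 and 21.7 CPM in Cre control hearts (1.25 ± 0.29, adjusted p = 0.000584). Lrp5, a Wnt coreceptor rather than a metabolic enzyme, had 1 higher region that lies 6844 bp outside the gene (2.16 ± 0.41) and 1 lower one (-0.88 ± 0.33). Fabp3, the fatty acid carrier of heart, had 2 of 3 regions lower, with 349, 380 and 267 CPM in Nr4a2-icTg hearts and 1042, 779 and 805 CPM in Cre control hearts in the region named (-1.40 ± 0.15, limma, adjusted p = 1.76e-11). Slc25a4, the ADP/ATP carrier of heart, was lower in 1 of 3 regions (-0.44 ± 0.14), as was a region 6606 bp outside Ndufv1, a complex I gene (-0.67 ± 0.21).

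Of 20 genes of mitochondrial gene expression and partners of nuclear respiratory factors, 15 had a region, 1 had a higher region (6.67%, against 14.2% of all genes) and 2 a lower one (13.3%, against 6.24%). The higher count was 0 with DESeq2 and without Nr4a2-icTg mouse 1 or 3 or Cre control mouse 1 or 3, and the lower count was 1 with DESeq2 and without Nr4a2-icTg mouse 1 or 2 or Cre control mouse 1 or 3. Lrpprc, which stabilises mitochondrial mRNA, was higher in its only region, 54 bp outside the gene (1.03 ± 0.37, limma, adjusted p = 0.0398). That region held 52.5, 23.6 and 61.8 CPM in Nr4a2-icTg hearts and 20.5, 28.2 and 14.5 CPM in Cre control hearts, so the groups overlapped. Gabpb1, a subunit of nuclear respiratory factor 2, was lower in its only region, with 219, 222 and 276 CPM in Nr4a2-icTg hearts and 279, 301 and 431 CPM in Cre control hearts (-0.47 ± 0.16, adjusted p = 0.0306). The lower region assigned to Mtif2, a mitochondrial translation factor gene, lies 2138 bp outside it and near Rps27a and Clhc1 (-0.68 ± 0.20).

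The profile of summed signal over the 6 mice was compared between Ppargc1a and 5575 genes of at least median signal, by the Euclidean distance of log2 values after each gene's own mean was taken off. The nearest were Daam1 at 0.0986, Cacul1 at 0.133, Nop16 at 0.146, Irx4 at 0.184 and Cyb5b at 0.185, against a median of 1.09. Perm1 stood at 0.298, Ppargc1b at 0.307 and Esrra at 0.979, while Nrf1 (1.43) was beyond the median. Tfam (1.18), Esrrg (1.39), Pprc1 (2.01) and Esrrb (2.32) had less than median signal. They were not among the ranked genes, so their distances cannot be set against that median. Daam1 averaged 277 CPM in Nr4a2-icTg hearts and 174 CPM in Cre control hearts, close to Ppargc1a in level as well.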

How the data were processed

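NR4A2 ChIP-seq was measured in heart ventricle of 6 mice. The 3 other samples of the series were not analysed here. Chromatin (30 µg) was precipitated with 5.5 µg of the antibody after fly chromatin (200 ng) and an antibody to a fly histone (0.4 µg) had been added, per the labels' protocols. Alignment with BWA to GRCm38/mm10 is taken from the submitters' processing notes. How peaks were called, merged and counted, and whether the fly reads entered the scaling, is not stated in any source at hand. The authors deposited CPM per mouse and region, already scaled for depth. They also deposited a log2 fold change, a p-value and an FDR per region, used here only where the authors' deposited table is named. All CPM values were whole multiples of the worth of 1 read (100% within 0.001 reads), so reads were recovered.

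Log2(CPM + 1) was fitted with limma 3.58.1 in R 4.3.3 (trend, robust, two-sided, no filter), with Benjamini-Hochberg adjustment over all regions or all genes. On recovered reads edgeR 4.0.16 called 2530 regions higher and 543 lower, and DESeq2 1.42.0 called 2177 and 251. These fits were also run on simulated reads with as many gains as losses. That cannot show how they behave where gains outnumber losses, and no result rests on it. Each mouse is 1 library, and its depth limits precision as given in the report. Genes were assigned by RefSeq spans of GRCm38.p6. The genes and lists were chosen with earlier results of these data known. Values per mouse are given for every called region and the strongest region of each of the 9 genes. From each list up to 4 genes with a higher and 4 with a lower region are named, those of smallest adjusted p, by that region. A gene that this rule picks is not reported here. Alternatives were the pseudocount (0.5 and 4), a median signal filter, a replicate block, each mouse left out, edgeR, DESeq2, no depth scaling and other gene extensions (0 and 50 kb).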

Additional observations from a re-analysis of the deposited data

How the results depend on the processing

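The 11 higher regions at the 9 genes became 10 and 12 with pseudocounts of 0.5 and 4, 11 with edgeR (10 shared), 8 with DESeq2, 8 above median signal, and 7 to 11 with a mouse left out. They became 5 with no depth scaling, 9 of 30 regions without the gene extension and 15 of 47 with 50 kb. None was lower in any of these fits. Ppargc1a region 1, Ppargc1b regions 6, 9 and 10, Esrrb and Perm1 region 4 kept their calls with each mouse left out, and Perm1 region 4 lost its call with no depth scaling (adjusted p = 0.119). Over all regions, higher calls numbered 481 above median signal, 1398 with no scaling and 1577 to 2332 with a mouse left out. Lower calls numbered 235, 14 and 270 to 454 in those fits and 251 with DESeq2. Gene sums gave 308 higher and 218 lower above median signal, 239 and 0 with no scaling, 104 lower with edgeR, 75 lower with DESeq2, and 197 to 299 lower with a mouse left out. Of the 9 genes, 1 was higher by sum with no scaling, and 3 to 4 with a mouse left out; the Esrrb sum missed without Nr4a2-icTg mouse 2 (adjusted p = 0.0594).

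For partners and regulators, genes with a higher region numbered 1 above median signal, 3 with no scaling and 5 to 10 with a mouse left out, and genes with a lower one 2, 0 and 2 to 3. For mitochondrial gene expression, higher genes numbered 0 above median signal, 0 with DESeq2, 0 with no scaling and 0 to 1 with a mouse left out, and lower genes 1, 1, 0 and 1 to 2. For metabolic genes, higher genes numbered 6 above median signal and 2 with no scaling, and lower genes 2 above median signal, 2 with edgeR, 2 with DESeq2, 1 with no scaling and 1 to 5 with a mouse left out. Sign changes were limited to values near 0. Ppargc1b region 13 ranged from -0.0456 without Nr4a2-icTg mouse 1 to 0.0819 without Nr4a2-icTg mouse 3, and was -0.0355 without Cre control mouse 2 and -0.0052 with no scaling. Esrra region 1 ranged from -0.1404 without Cre control mouse 1 to 0.0132 without Cre control mouse 3, and the Esrra sum from -0.1896 to 0.0106 without the same mice, and that sum was 0.0385 with edgeR and 0.0145 with DESeq2. The cause was not tested.

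Mice of the same number did not deviate together (correlations of -0.066, 0.061 and 0.033). No pairing by number was seen, but such correlations cannot exclude a shared litter or batch, which was not tested. With a replicate block 11 regions at the 9 genes were higher, all 11 shared, and 2540 regions were higher and 580 lower over the table.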
